A study of Mus musculus with 37 samples.

Results

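Cultured tumor cells of SKO mice (SKO tumor, n = 3) were compared with cultured bone marrow cells of control mice (control BM, n = 3) by RNA-seq. These 6 libraries, chosen by their genotype and tissue labels, belong to a series of 37 libraries of mouse bone marrow and osteosarcoma cells, in which loss of Trp53 alone (SKO) was set beside loss of both Wwox and Trp53 (DKO). They were processed within the 21 libraries called set 2, which holds 7 groups of 3 libraries, whereas the other 16 libraries (set 1) include 4 further control BM cultures. In SKO mice, Osx1-Cre deleted Trp53 in mesenchymal progenitors committed to bone and switched on a Rosa26-LSL-tdTomato reporter. Osteosarcoma tissue was taken when a tumor was detected, minced, digested and cultured, and the study's methods describe RNA prepared after passages in which tdTomato-positive cells had come to dominate. The control mice were WT in the sample labels and the methods and Cre negative in the series description. Their marrow was flushed from femurs and tibiae, freed of red blood cells and cultured in the same MEM-Alpha medium with serum, and these cells carried no deletion. Neither the ages of these mice nor whether each library of a group is a different animal is stated for set 2, so the p-values measure the spread between libraries only. SKO BMT cells are cultured marrow of tumor-bearing SKO mice, SKO yBM cells are cultured marrow of young SKO mice without a tumor, and DKO tumor cells are the osteosarcoma cultures of DKO mice.

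Osteosarcoma is a malignant tumor of bone whose cells resemble the mesenchymal and osteoblast lineage and lay down bone matrix. Osterix (Sp7), whose promoter drives the Cre used here, is a transcription factor of the osteoblast lineage that acts after Runx2. p53 is a transcription factor that is stabilised by DNA damage and other stress, after which it raises genes that arrest the cell cycle, repair DNA or start apoptosis, while Mdm2, itself a p53 target, marks it for degradation. Through p21 (Cdkn1a) and the Rb family of pocket proteins, active p53 also lowers many genes of DNA replication and mitosis. Adherent cultures of whole marrow hold stromal cells together with macrophages, which attach to the plastic and persist for some passages.

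The targeted gene was checked first. Trp53 had 2.49, 0.792 and 1.98 TPM (transcript counts scaled for length and to a fixed library total) in SKO tumor 1, 2 and 3, against 35.9, 65.9 and 74.9 TPM in control BM 1, 2 and 3. The SKO tumor libraries were all far below the control BM libraries, with a log2 difference of -4.43 (SE 0.49, adjusted p = 2.74e-06). Wwox, which is not deleted in SKO mice, had 7.63, 2.78 and 6.94 TPM in the SKO tumors and 4.05, 2.97 and 3.74 TPM in control BM, and it did not pass the test (log2 difference 0.48, adjusted p = 0.722). Differences are on the log2(TPM + 1) scale throughout, as SKO tumor minus control BM, where the added 1 shrinks the change of weakly expressed genes. The other SKO groups also matched their label for Trp53, at 2.77 to 4.64 TPM in SKO BMT and 2.91 to 3.77 TPM in SKO yBM. Wwox went against the labels in 5 libraries used below, since it was at 4.26 to 5.23 TPM in the libraries labelled DKO tumor and at 0.102 and 0.0857 TPM in those labelled SKO BMT 2 and 3.

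The libraries were not equally uniform. Mitochondrial genes took 14.9%, 26.8% and 15.1% of the TPM in SKO tumor 1, 2 and 3, against 32.5%, 13.6% and 9.07% in control BM 1, 2 and 3, so SKO tumor 2 and control BM 1 had the highest shares. Genes at 1 TPM or more numbered 11001 in SKO tumor 2, against 12151 to 13051 in the control BM libraries, and 12298 and 12714 were counted in SKO tumor 1 and 3. Relative to the control mean, the median gene stood at 0.17, -0.81 and 0.13 on the log2 scale in SKO tumor 1, 2 and 3. The median SD between libraries was 0.72 in the SKO tumors and 0.41 in control BM (log2 scale), and 71.2% of genes varied more among the tumors. TPM keeps no sequencing depth, which is therefore unknown here. Pearson correlations across genes were 0.843 to 0.902 within SKO tumor, 0.902 to 0.969 within control BM and 0.724 to 0.825 between them.

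Of 14458 genes tested with limma, 291 rose and 1383 fell in SKO tumor cells at an adjusted p under 0.05. The backgrounds against which the gene lists below are read were therefore 2.01% of genes that rose and 9.57% that fell. Without asking for a test, all 3 tumor libraries were above all 3 control libraries for 7.46% of genes and below them for 15.5%. The number of genes that rose depended on single libraries, as 89 rose without control BM 1, 139 without control BM 2 and 163 without SKO tumor 1 whereas 461 rose without SKO tumor 2. Genes that fell numbered 779 without control BM 2, 836 without control BM 3 and 980 without SKO tumor 2. Without both SKO tumor 2 and control BM 1, 135 rose and 761 fell, of which 70 and 699 were among the 291 and 1383. Scaling moved the balance, since the median of all genes was -0.11 as deposited, 0.06 after median-ratio scaling and 0.17 after quantile normalization, where 756 and 1256 genes rose and 1574 and 1484 fell. Genes that rose were thus 17.4% of the calls as deposited, 32.4% after median-ratio scaling and 45.8% after quantile normalization. Of 136 called genes named here or followed for the lists, 65 lost their call in a fit of the 2 groups alone, 49 without both SKO tumor 2 and control BM 1 and 42 with the control BM libraries of set 1, and the losses given gene by gene below are mainly those on leaving out 1 library.

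**Figure D1:**
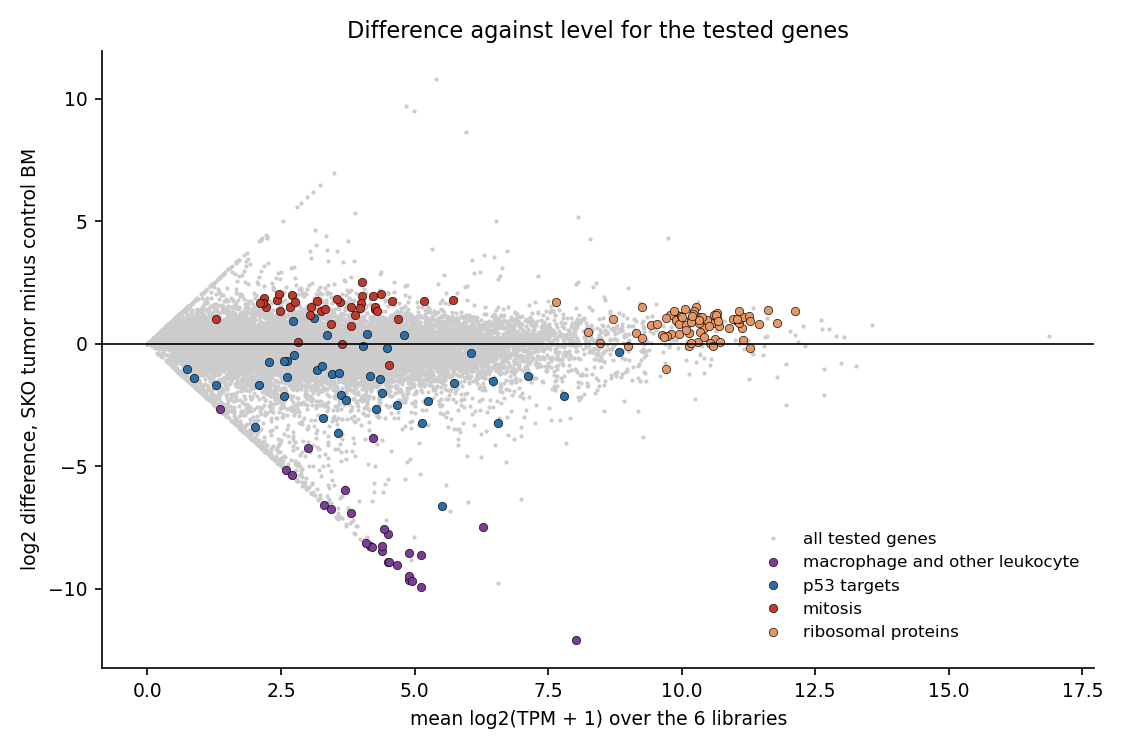
Log2 difference (SKO tumor minus control BM, y axis) against the mean log2(TPM + 1) of the 6 libraries (x axis), one grey point per tested gene. Members of the macrophage and other leukocyte, p53 target, mitosis and ribosomal protein lists are in colour, whether called or not. The largest fall was that of Lyz2 at -12.09 and the largest rise that of Rpl34-ps1 at 10.81, and the 27 leukocyte markers that were tested lie between -12.09 and -2.67.

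The largest falls were of macrophage genes. The 12 largest by the naming rule were Lyz2, Tyrobp, Apoe, Laptm5, C1qa, Ctss, Clec4d, C1qc, C1qb, Wfdc17, Cd68 and Csf1r. Lyz2, which encodes lysozyme of macrophages and neutrophils, had 1.69, 2.34 and 5.80 TPM in the SKO tumors, against 17778, 14993 and 18933 TPM in control BM (log2 difference -12.09, SE 2.20, adjusted p = 0.000789). Csf1r, the receptor for the macrophage growth factor CSF1, had 0.736, 0.260 and 0.664 TPM in the SKO tumors, against 544, 582 and 599 TPM in control BM (adjusted p = 2.11e-06). In both genes the groups were separated by a wide gap, with every tumor library close to 0. Ptprc, the pan-leukocyte antigen CD45, was at 0.0365, 0.0173 and 0 TPM in the SKO tumors, against 41.8, 35.4 and 46.7 TPM in control BM. Spi1, which encodes PU.1, a transcription factor of myeloid cells, was at 0, 0 and 0.0457 TPM in the SKO tumors, against 319, 264 and 268 TPM in control BM.

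Among the 10 genes with the smallest p were further genes of macrophages and related cells. Cx3cr1, the receptor for fractalkine, had 0, 0.0269 and 0 TPM in the SKO tumors, against 42.0, 34.0 and 30.1 TPM in control BM (log2 difference -5.16, SE 0.21, adjusted p = 1.39e-11). Fcrls, an Fc receptor-like gene, had 0, 0.0230 and 0 TPM in the SKO tumors, against 293, 250 and 237 TPM in control BM (log2 difference -8.01, adjusted p = 5.54e-15). Pf4, a chemokine of platelets and some macrophages, had 0.837, 0.795 and 0.137 TPM in the SKO tumors, against 238, 219 and 500 TPM in control BM (adjusted p = 1.97e-10). Marco, a scavenger receptor, was listed at 0 in all SKO tumors, against 133, 318 and 371 TPM in control BM. Nxpe5, St8sia4, Gpr84, Rgs18, Gpr65 and the ribosomal protein pseudogene Rpl3-ps1 made up the rest of the 10, and all fell. Cx3cr1, Fcrls, St8sia4, Gpr84, Rgs18, Gpr65 and Rpl3-ps1 passed the filter on low values only through the 3 control BM libraries. They could therefore only have been called lower, and their rank by p gives no support of its own.

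Of 28 listed markers of macrophages and other leukocytes, 27 were tested and all 27 fell, with a median log2 difference of -8.24, and none of the 27 overlapped between the groups. Their summed level was 13.6 to 35.8 TPM in the SKO tumors, against 24836 to 30605 TPM in control BM. The same sum was 17.6 to 3498 TPM in SKO BMT, 12.6 to 39.6 TPM in SKO yBM and 11.5 to 27.4 TPM in DKO tumor libraries, while the 4 control BM libraries of set 1 had 3420 to 17958 TPM. In bulk RNA, fewer cells of a type and less RNA per cell cannot be told apart. Markers of other blood cells were low in both groups. The lymphocyte markers summed to 0.0385 to 0.483 TPM in the SKO tumors and 0.469 to 0.943 TPM in control BM, and none of them passed the filter on low values. Of the neutrophil list, 2 of 5 tested members fell (Csf3r and S100a8), and of the osteoclast list 2 of 6 fell (Tnfrsf11a and Atp6v0d2), against the background of 9.57%. Other cells of the monocyte lineage can also express these genes, and Atp6v0d2 was not called without control BM 1 (adjusted p = 0.051). Csf3r passed the filter on low values only through the control BM libraries, so it could only have been called lower. The neutrophil sums overlapped, at 2.25 to 27.2 TPM in the SKO tumors and 12.5 to 19.6 TPM in control BM. The median log2 difference of the neutrophil list was 0.03.

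Because the leukocyte sum of each control BM library of set 2 lay above those of the other 18 libraries, the leukocyte level and the control group cannot be told apart by a covariate. With the mean level of the list as a covariate, 68 genes rose and 114 fell, and these included 6 of the 291 and 110 of the 1383. The part of the macrophages in each difference described below was not tested. With the 4 control BM libraries of set 1 in place of those of set 2, whose leukocyte sums were lower, 506 genes rose and 1493 fell, of which 152 and 909 were among the calls above.

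**Figure D2:**
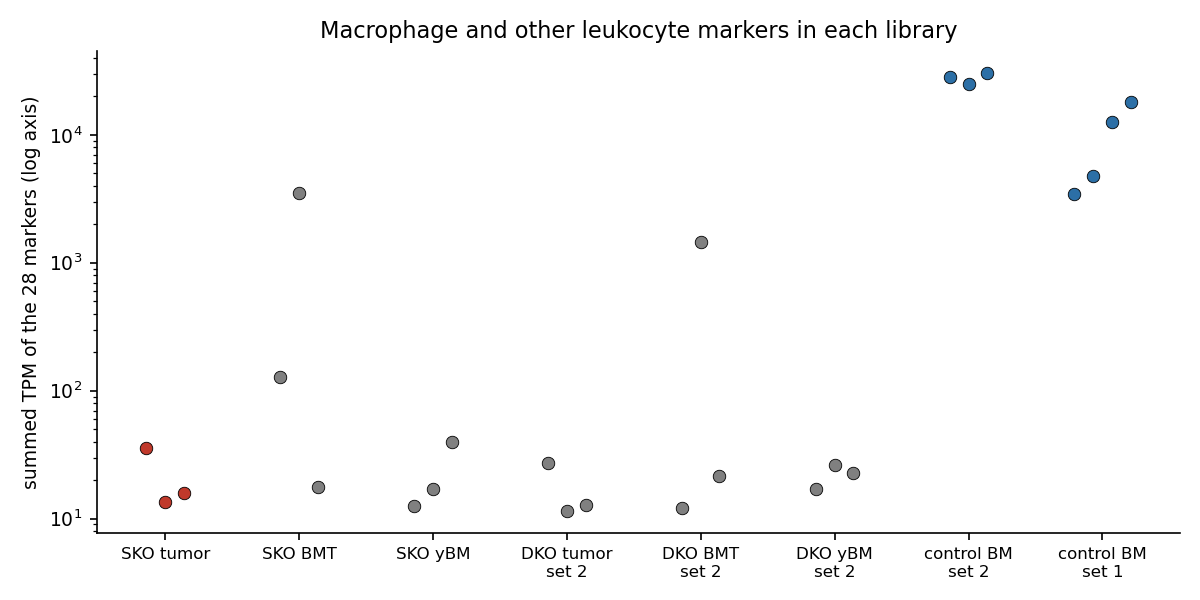
Summed TPM of the 28 macrophage and other leukocyte markers (log axis) in each library, by group, with the control BM groups at the right. The SKO tumor libraries sit between 13.6 and 35.8 TPM and the control BM libraries of set 2 between 24836 and 30605 TPM, above all other libraries of that set.

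Among the p53 targets, 19 of 41 fell and 0 rose, against the backgrounds of 9.57% and 2.01%. All tumor libraries were below all control BM libraries for 22 of the 41, against 15.5% of all genes. The median log2 difference of the list was -1.36, against -0.11 for all genes. Cdkn1a, which encodes the cyclin-dependent kinase inhibitor p21, had 2.78, 2.84 and 5.42 TPM in the SKO tumors, against 284, 586 and 560 TPM in control BM (log2 difference -6.65, SE 1.00, adjusted p = 9.32e-05). Ccng1, cyclin G1, a target that acts back on p53 and Mdm2, had 38.6, 26.5 and 25.5 TPM in the SKO tumors, against 173, 386 and 362 TPM in control BM (log2 difference -3.24, SE 0.45, adjusted p = 3.74e-05). Mdm2 had 19.1, 13 and 16.3 TPM in the SKO tumors, against 68.0, 99.5 and 86.6 TPM in control BM (log2 difference -2.32, SE 0.33, adjusted p = 5.83e-05). The lowest control library was above the highest tumor library in each of these genes, and control BM 1 was the lowest of the controls in all of them.

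Psrc1, a microtubule-associated protein gene, had 3.30, 1.40 and 2.71 TPM in the SKO tumors, against 23.6, 57.7 and 49.3 TPM in control BM (log2 difference -3.63, adjusted p = 3e-05). Eda2r, a receptor of the TNF family, had 0.266, 0.240 and 0.247 TPM in the SKO tumors, against 7.0, 16.6 and 15.1 TPM in control BM (log2 difference -3.39, adjusted p = 3.56e-05). Among the targets that act in apoptosis, Bax, whose product opens the outer mitochondrial membrane, had 135, 64.3 and 132 TPM in the SKO tumors, against 309, 625 and 541 TPM in control BM (log2 difference -2.16, adjusted p = 0.000176). The Bax transcript thus remained well above 1 TPM in the tumors, unlike that of Eda2r. Bbc3, which encodes Puma, had 1.73, 0.514 and 4.16 TPM in the SKO tumors, against 8.16, 13.9 and 12.8 TPM in control BM (adjusted p = 0.00102). Trp53inp1, a stress-induced partner of p53, had 0.940, 4.29 and 2.89 TPM in the SKO tumors, against 18.3, 31.6 and 32.9 TPM in control BM (adjusted p = 8.36e-05). Cdkn1a, Bax, Bbc3 and Trp53inp1 were named after their values were seen, for their roles. The other targets that fell were Aen, Btg2, Dcxr, Ei24, Fas, Pidd1, Sesn1, Tnfrsf10b, Trp53cor1, Xpc and Zmat3. Of these, Btg2, Fas, Tnfrsf10b and Xpc did not pass in 3 to 5 of the 6 fits that left out a library, with adjusted p up to 0.0655, 0.0923, 0.174 and 0.119. Sesn1, Tnfrsf10b and Xpc did not pass with the control BM libraries of set 1. Trp53cor1 passed the filter on low values only through the control BM libraries, so it could only have been called lower.

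The p53 target count was 14 to 20 when any of the 6 libraries was left out, 16 without both SKO tumor 2 and control BM 1, 16 with the control BM libraries of set 1 and 11 in a fit of the 2 groups alone. With the leukocyte covariate 0 of 41 passed, with a median of -0.97, and the difference for Cdkn1a was 0.58 (adjusted p = 0.961). Against SKO yBM none of these genes passed, and Cdkn1a stood at -0.32 (adjusted p = 0.925), Ccng1 at -0.16 (adjusted p = 0.911) and Mdm2 at -0.54 (adjusted p = 0.614).

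**Figure D3:**
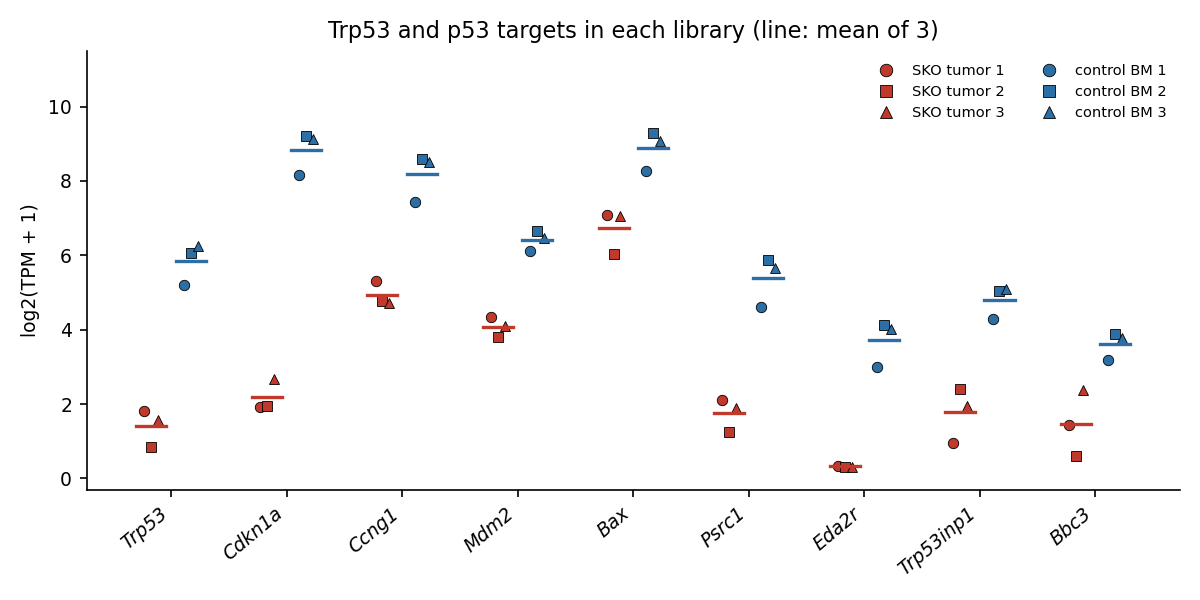
Level, as log2(TPM + 1), of Trp53 and 8 p53 targets in the 3 SKO tumor libraries (left of each pair) and the 3 control BM libraries (right), with a line at each mean. For every gene shown the tumor libraries lie below the control BM libraries, and the gap is widest for Cdkn1a.

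The promoters of p53 targets that fell are shown because p53 acts by binding DNA near them. Sequences are RefSeq windows on GRCm38.p6 from 250 bases before to 50 bases after the annotated start, each written 5′ to 3′ on the gene's strand, and capitals mark matches to the p53 half-site, a degenerate motif of 10 bases, searched on both strands. The windows are Cdkn1a at chr17:29090729-29091028 (plus strand), Ccng1 at chr11:40755237-40755536 (minus strand), Mdm2 at chr10:117710709-117711008 (minus strand) and Bax at chr7:45466849-45467148 (minus strand).
Cdkn1a: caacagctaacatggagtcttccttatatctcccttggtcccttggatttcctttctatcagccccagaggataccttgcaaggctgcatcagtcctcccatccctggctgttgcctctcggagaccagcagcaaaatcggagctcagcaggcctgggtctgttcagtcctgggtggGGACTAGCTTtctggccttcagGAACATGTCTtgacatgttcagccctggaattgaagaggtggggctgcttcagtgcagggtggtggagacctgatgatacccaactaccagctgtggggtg
Ccng1: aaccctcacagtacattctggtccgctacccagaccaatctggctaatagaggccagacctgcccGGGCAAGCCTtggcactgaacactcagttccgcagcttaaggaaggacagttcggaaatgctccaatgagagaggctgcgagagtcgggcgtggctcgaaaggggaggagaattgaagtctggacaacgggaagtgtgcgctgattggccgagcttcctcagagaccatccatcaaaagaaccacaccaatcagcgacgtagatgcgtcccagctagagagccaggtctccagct
Mdm2: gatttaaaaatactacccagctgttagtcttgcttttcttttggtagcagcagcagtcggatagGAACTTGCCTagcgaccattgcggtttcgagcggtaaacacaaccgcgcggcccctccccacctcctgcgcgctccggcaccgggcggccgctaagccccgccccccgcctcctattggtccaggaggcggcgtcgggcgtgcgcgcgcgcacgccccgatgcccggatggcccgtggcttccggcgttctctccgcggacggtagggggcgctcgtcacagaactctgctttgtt
Bax: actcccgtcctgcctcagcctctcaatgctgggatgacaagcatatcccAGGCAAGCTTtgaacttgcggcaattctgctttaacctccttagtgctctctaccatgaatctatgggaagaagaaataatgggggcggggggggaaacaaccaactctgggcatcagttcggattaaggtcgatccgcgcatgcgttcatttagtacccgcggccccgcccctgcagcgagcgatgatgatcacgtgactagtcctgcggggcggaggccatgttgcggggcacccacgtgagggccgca
Cdkn1a has a pair of half-sites, starting at -73 and -51 from the start, whereas the single matches of Ccng1, Mdm2 and Bax start at -185, -186 and -201. The bases directly after the Cdkn1a match at -51 (tgacatgttc) come close to the motif but do not match it, so they are not marked. A half-site was found in 7 of the 14 fallen targets that have an entry (50%), namely Aen, Bax, Ccng1, Cdkn1a, Ei24, Mdm2 and Sesn1, against 9.55% of the 27025 genes with a promoter entry. Of all tested p53 targets with an entry, 14 of 32 (43.8%) hold one, so the motif was already frequent in the list from which the fallen genes were drawn. A pair of half-sites at most 13 bases apart occurred in Cdkn1a alone of these 14 and in 0.0731% of all 32851 promoter entries. A match describes these letters only, and many sites that p53 binds lie outside such windows.

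Few regulators of the p53 and Rb pathways were called. Of 33 tested, 1 rose and 3 fell, the deleted Trp53 itself among them, close to the backgrounds of 2.01% and 9.57%. Rb1, the retinoblastoma gene, which is often lost in human osteosarcoma, had 6.0, 1.86 and 4.65 TPM in the SKO tumors, against 11.2, 14.9 and 18.1 TPM in control BM (log2 difference -1.68, adjusted p = 0.0104). This call was lost without control BM 3 (adjusted p = 0.0547) or SKO tumor 2 (adjusted p = 0.0526), although the groups did not overlap. Rbl2, the related pocket protein p130, had 8.49, 7.04 and 14.5 TPM in the SKO tumors, against 34.3, 22.3 and 22.4 TPM in control BM (log2 difference -1.34, adjusted p = 0.0189). It was lost without control BM 1 (adjusted p = 0.087), SKO tumor 1 (adjusted p = 0.0576) or SKO tumor 2 (adjusted p = 0.0659). Chek1, a kinase of the replication checkpoint, had 19.98, 9.75 and 10.0 TPM in the SKO tumors, against 0.490, 2.38 and 2.90 TPM in control BM (log2 difference 2.33, adjusted p = 0.0301), and was lost without control BM 1 (adjusted p = 0.136), control BM 2 (adjusted p = 0.0654) or SKO tumor 1 (adjusted p = 0.105). Cdk4, which phosphorylates Rb, had 527, 208 and 461 TPM in the SKO tumors and 96.5, 247 and 263 TPM in control BM, so the groups overlapped, and the difference of 1.00 did not pass (adjusted p = 0.168). It passed after quantile normalization (adjusted p = 0.0471) and turned to -0.29 with the leukocyte covariate.

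Genes of DNA replication were higher in SKO tumor cells in part of the list. Of 53 tested, 8 rose, among them Dbf4, Orc6, Prim1, Rfc3, Rfc4, Rpa3 and Tyms, and 0 fell. All tumor libraries were above all control libraries for 16 of the 53, against 7.46% of all genes. The median log2 difference was 0.78, against -0.11 for all genes. Prim1, the catalytic subunit of DNA primase, had 32.2, 15.2 and 12.5 TPM in the SKO tumors, against 1.91, 4.29 and 5.97 TPM in control BM (log2 difference 2.03, SE 0.41, adjusted p = 0.00229). Tyms, thymidylate synthase, had 97.3, 54.3 and 45.6 TPM in the SKO tumors, against 4.78, 15.5 and 19.6 TPM in control BM (log2 difference 2.34, SE 0.48, adjusted p = 0.00241). SKO tumor 1 was the highest and control BM 1 the lowest library in both genes. Orc6, of the origin recognition complex, had 50.7, 38.9 and 29.4 TPM in the SKO tumors, against 6.28, 13.2 and 15.0 TPM in control BM (log2 difference 1.75, adjusted p = 0.00339). Rfc4, a subunit of the clamp loader, had 35.6, 41.0 and 13.8 TPM in the SKO tumors, against 3.27, 4.54 and 11.5 TPM in control BM (log2 difference 2.09, adjusted p = 0.0052). These 4 genes kept their call whichever of the 6 libraries was left out, whereas Dbf4 and Rpa3 lost it in 4 and 2 of those 6 fits (adjusted p up to 0.148 and 0.114). In a fit of the 2 groups alone Prim1, Tyms, Orc6 and Rfc4 all lost it (adjusted p = 0.11, 0.0871, 0.0997 and 0.139). Without both SKO tumor 2 and control BM 1, Orc6 (adjusted p = 0.0516) and Rfc4 (adjusted p = 0.118) lost it, and Orc6 also with the control BM libraries of set 1 (adjusted p = 0.0729). The count of the list was 5 without control BM 1, 12 without SKO tumor 2, 2 without both SKO tumor 2 and control BM 1, and 0 in a fit of the 2 groups alone or with the leukocyte covariate. It was 19 after median-ratio scaling and 25 after quantile normalization.

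The subunits of the replicative helicase were not among the genes that rose. Mcm7 had 82.0, 16.4 and 45.1 TPM in the SKO tumors and 15.6, 28.2 and 25.6 TPM in control BM (log2 difference 0.79, SE 0.48, adjusted p = 0.351). Mcm5 had 74.1, 7.54 and 29.7 TPM in the SKO tumors and 7.63, 16.3 and 18.7 TPM in control BM (log2 difference 0.91, SE 0.70, adjusted p = 0.477). In both, SKO tumor 1 and 3 lay above the control libraries and SKO tumor 2 lay among or below them. Mcm7 passed after quantile normalization (adjusted p = 0.0459), and its difference turned to -0.64 with the leukocyte covariate.

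Genes of mitosis were also higher in part of the list. Of 38 tested, 9 rose (Aurka, Bub1, Ccnb1, Cdc25c, Cdk1, Cenpa, Hmmr, Ncapg and Ttk) and 0 fell, and the median was 1.51. All tumor libraries were above all control libraries for 21 of the 38, against 7.46% of all genes. Ccnb1, cyclin B1, had 78.3, 26.1 and 25.5 TPM in the SKO tumors, against 2.68, 7.03 and 9.25 TPM in control BM (log2 difference 2.52, SE 0.59, adjusted p = 0.00772, and 0.0524 without control BM 1). Cdk1, the kinase that cyclin B1 activates, had 191, 74.9 and 62.3 TPM in the SKO tumors, against 15.6, 32.1 and 41.9 TPM in control BM (log2 difference 1.76, adjusted p = 0.021). The Cdk1 call was lost without control BM 1 (adjusted p = 0.114), control BM 2 (adjusted p = 0.0531) or SKO tumor 1 (adjusted p = 0.108), and Cdk1 was named after its values were seen. Cenpa, the centromeric histone, had 72.3, 31.2 and 30.0 TPM in the SKO tumors, against 5.17, 9.37 and 15.7 TPM in control BM (log2 difference 2.03, adjusted p = 0.0102), and was lost without control BM 1 (adjusted p = 0.0629) or SKO tumor 1 (adjusted p = 0.0569). Bub1, a kinase of the spindle checkpoint, and Cdc25c, the phosphatase that activates Cdk1, were lost without the same 2 libraries, with log2 differences of 1.98 and 1.85. Without control BM 1 their adjusted p was 0.0648 and 0.0746, and without SKO tumor 1 it was 0.0638 and 0.0633. Aurka, Hmmr, Ncapg and Ttk lost their call in 4 or 5 of the 6 fits that left out a library, with adjusted p up to 0.21, 0.155, 0.0975 and 0.173. The count of the list was 0 without control BM 1, 1 without SKO tumor 1, 4 without control BM 2, 5 without control BM 3 and 17 without SKO tumor 2. It was 1 with the control BM libraries of set 1, 0 in a fit of the 2 groups alone or with the leukocyte covariate, 26 after median-ratio scaling and 32 after quantile normalization.

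**Figure D4:**
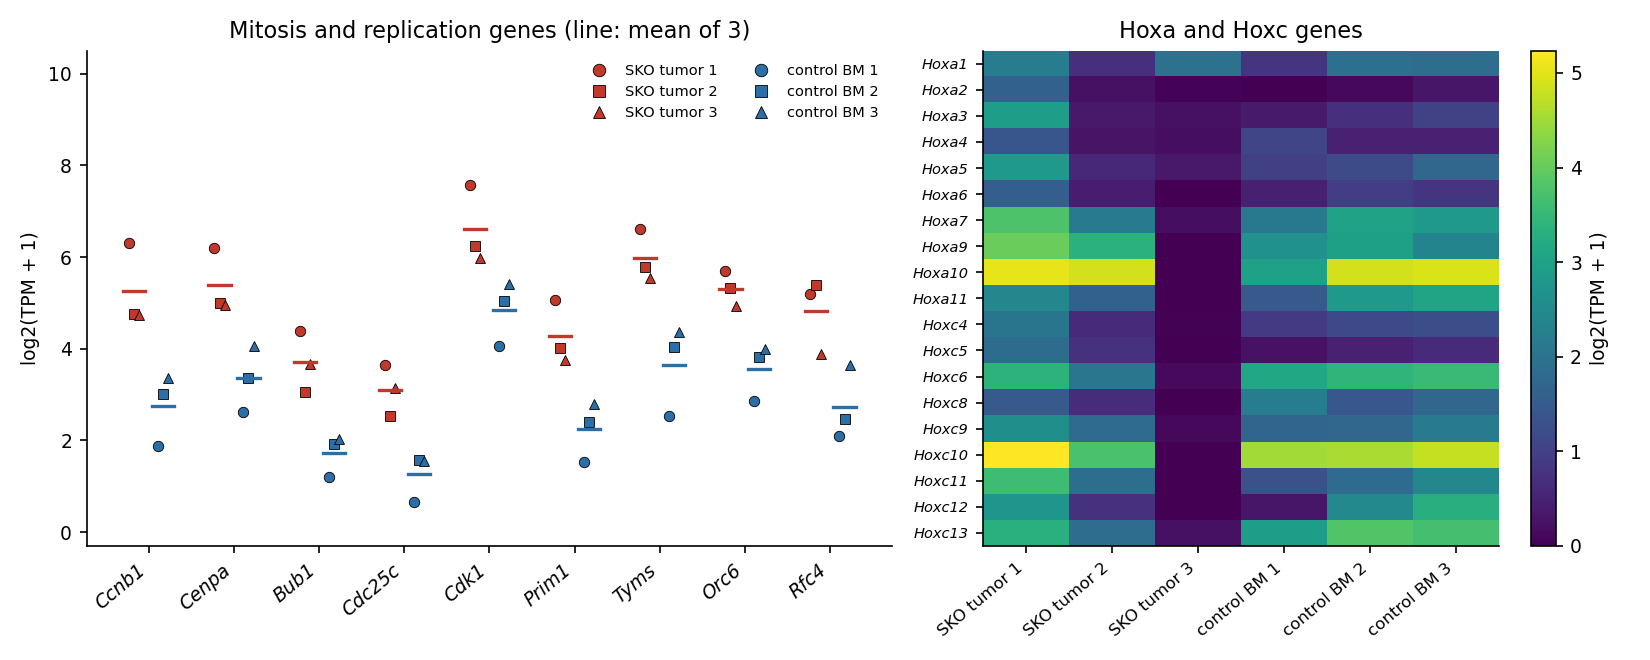
Left, level as log2(TPM + 1) of 5 mitotic and 4 replication genes in the SKO tumor libraries (left of each pair) and the control BM libraries (right), with a line at each mean. Right, log2(TPM + 1) of the 19 tested Hoxa and Hoxc genes by library, in which SKO tumor 1 has all 19 at 1 TPM or more and SKO tumor 3 has 1.

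Promoters of mitotic genes that rose are shown for the cell cycle genes homology region (CHR) and the CCAAT box. Through the CHR such genes are usually held down in resting cells and after p53 activation. Capitals mark the CHR (searched as TTTGAA) and the CCAAT box on either strand, in the same kind of RefSeq window, for Cdk1 at chr10:69352863-69353162 (minus strand) and Cenpa at chr5:30666636-30666935 (plus strand).
Cdk1: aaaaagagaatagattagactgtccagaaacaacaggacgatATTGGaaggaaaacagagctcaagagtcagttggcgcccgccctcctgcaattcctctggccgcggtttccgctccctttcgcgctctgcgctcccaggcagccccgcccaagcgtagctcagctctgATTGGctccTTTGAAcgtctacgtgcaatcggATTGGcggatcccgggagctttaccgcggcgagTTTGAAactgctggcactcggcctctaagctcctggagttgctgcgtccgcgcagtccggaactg
Cenpa: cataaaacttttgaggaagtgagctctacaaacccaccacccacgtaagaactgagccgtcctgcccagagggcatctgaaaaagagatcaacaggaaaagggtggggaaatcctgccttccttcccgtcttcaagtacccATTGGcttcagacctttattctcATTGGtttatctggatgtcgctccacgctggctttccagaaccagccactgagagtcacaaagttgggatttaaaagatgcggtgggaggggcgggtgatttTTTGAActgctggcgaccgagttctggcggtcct
Both windows hold a CHR within 20 bases of the start, at -15 in Cdk1 and at 16 in Cenpa, and CCAAT boxes in reverse orientation upstream of it. Of the 17 replication and mitosis genes that rose, 15 have an entry, and 6 of these (40%) hold both elements, against 6.95% of all promoter entries. Those 6 were Aurka, Cdk1, Cenpa, Hmmr, Ncapg and Ttk. Of the 72 tested genes of both lists that have an entry, 29.2% hold both elements, so the genes that rose were drawn from lists in which the elements were already frequent. By itself the CHR occurred in 7 of the 15 and in 17.9% of all entries, and the CCAAT box in 12 of the 15 and in 37.4% of all entries.

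Myc did not separate the groups. It had 65.0, 5.33 and 37.2 TPM in SKO tumor 1, 2 and 3 and 12.2, 20.4 and 20.1 TPM in control BM (log2 difference 0.48, SE 0.62, adjusted p = 0.711), so SKO tumor 1 and 3 lay above all control libraries and SKO tumor 2 below them. The difference was -0.22 without SKO tumor 1 (adjusted p = 0.871) and 1.47 without SKO tumor 2 (adjusted p = 0.0527). Of 11 tested genes of the Myc network, 0 rose and 1 fell. This was Max, the obligate partner of Myc, with 50.6, 41.6 and 69.8 TPM in the SKO tumors, against 126, 112 and 134 TPM in control BM (log2 difference -1.21, adjusted p = 0.0118, and 0.0516 without control BM 3). Mxd3, a Max partner that opposes Myc, had 18.4, 5.38 and 9.88 TPM in the SKO tumors, against 0.883, 1.89 and 1.46 TPM in control BM. Its groups did not overlap, but its difference of 2.22 narrowly missed the threshold (adjusted p = 0.0568). It passed with a pseudocount of 0.1 and under both scalings.

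The list of nucleolar Myc targets also holds targets that act elsewhere, such as Hspe1 and Ran. Of its 60 tested genes, 5 rose (Gnl3, Hspe1, Mrto4, Nop56 and Ran), against the background of 2.01%, and 0 fell, with a median of 0.38. Hspe1, a mitochondrial chaperonin, had 331, 342 and 214 TPM in the SKO tumors, against 108, 111 and 132 TPM in control BM (log2 difference 1.30, SE 0.26, adjusted p = 0.00215), and kept its call whichever library was left out, but not in a fit of the 2 groups alone (adjusted p = 0.102). Ran, a GTPase that drives transport through nuclear pores, had 386, 215 and 195 TPM in the SKO tumors, against 68.4, 122 and 165 TPM in control BM (log2 difference 1.18, adjusted p = 0.0288), and was lost without control BM 1 (adjusted p = 0.147), control BM 2 (adjusted p = 0.0701) or SKO tumor 1 (adjusted p = 0.13). Nop56, Gnl3 and Mrto4 lost theirs in 5, 4 and 2 of the 6 fits (adjusted p up to 0.151, 0.141 and 0.0594). Without SKO tumor 1 the list had 1 gene that rose and a median of -0.12, and without SKO tumor 2 it had 11. Rrp9, which acts in rRNA processing, had 67.3, 11.5 and 32.0 TPM in the SKO tumors and 23.5, 20.6 and 19.6 TPM in control BM (adjusted p = 0.596). Rcc1, the exchange factor for Ran, had 42.0, 3.04 and 16.5 TPM in the SKO tumors and 8.53, 11.8 and 12.6 TPM in control BM (adjusted p = 0.828). As with Myc, SKO tumor 2 was the lowest of the 6 libraries in both.

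Ribosomal protein genes were higher in part of the list. Of 78 tested, 19 rose and 0 fell, and the median was 0.88. All tumor libraries were above all control libraries for 43 of the 78 genes, against 7.46% of all genes. Ribosomal protein genes took 12.3%, 19.7% and 14.1% of the TPM in SKO tumor 1, 2 and 3, against 5.63%, 10.1% and 11.3% in control BM. Rpl31 had 1939, 3717 and 2134 TPM in the SKO tumors, against 749, 1227 and 1290 TPM in control BM (log2 difference 1.23, adjusted p = 0.0145), and was lost without control BM 1 (adjusted p = 0.0685) or SKO tumor 2 (adjusted p = 0.0723). Rpl30 had 1200, 2219 and 1285 TPM in the SKO tumors, against 647, 689 and 734 TPM in control BM (log2 difference 1.13, adjusted p = 0.0157), and was lost without control BM 2 (adjusted p = 0.0587) or SKO tumor 2 (adjusted p = 0.0732). SKO tumor 2 was the highest library in each of these, in contrast to its place for Myc and the helicase genes. The list had 1 gene that rose without control BM 1, 8 without control BM 2, 3 that rose and 1 that fell without SKO tumor 2, and 51 that rose with the control BM libraries of set 1. It had 0 in a fit of the 2 groups alone, 6 after median-ratio scaling, and a median of -0.10 with the leukocyte covariate. Pseudogenes of these genes can share reads with them, so their levels are uncertain.

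The genes that define the bone lineage did not pass the test. None of 15 osteoblast transcription factors was called by limma (0 rose, 0 fell), and their summed level was 172 to 443 TPM in the SKO tumors, against 104 to 234 TPM in control BM. Runx2 had 33.1, 7.38 and 12.3 TPM in the SKO tumors and 6.32, 10.3 and 11.5 TPM in control BM (log2 difference 0.62, adjusted p = 0.563). Sp7 had 31.3, 12.8 and 0.634 TPM in the SKO tumors and 0.882, 10.3 and 10.4 TPM in control BM (log2 difference 0.53, adjusted p = 0.887). For Sp7, SKO tumor 1 and 2 lay above all control libraries and SKO tumor 3 below them, and each group had 1 library under 1 TPM. Their directions were not stable, as Runx2 turned to -0.83 with the control BM libraries of set 1, and Sp7 to -0.39 without SKO tumor 1. Col1a1, which encodes the main collagen of bone, had 1433, 274 and 2771 TPM in the SKO tumors and 493, 775 and 657 TPM in control BM (log2 difference 0.71, adjusted p = 0.778). Col1a2 had 2126, 388 and 2632 TPM in the SKO tumors and 239, 618 and 488 TPM in control BM (adjusted p = 0.293). The bone matrix list summed to 3902 to 10308 TPM in the SKO tumors and 3477 to 6087 TPM in control BM, where the leukocyte sum was larger. SKO tumor 3 had the highest matrix sum and the lowest Sp7, and such sums hold genes that stromal cells share, so they do not settle how far each culture was of the bone lineage.

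Of 23 bone matrix and mineralization genes 1 fell. Fam20c, the kinase that phosphorylates secreted bone proteins, had 10.7, 1.25 and 25.0 TPM in the SKO tumors, against 65.8, 57.9 and 59.9 TPM in control BM (log2 difference -2.82, adjusted p = 0.00802), and it kept its call whichever of the 6 libraries was left out. The Fam20c call was lost with the control BM libraries of set 1 (adjusted p = 0.0654), without both SKO tumor 2 and control BM 1 (adjusted p = 0.101) and in a fit of the 2 groups alone (adjusted p = 0.15). Omd, osteomodulin, a proteoglycan of mineralized tissue, had 47.2, 1079 and 34.2 TPM in the SKO tumors and 5.36, 36.6 and 22.3 TPM in control BM. It did not pass (adjusted p = 0.267), and SKO tumor 2 stood far above the other 5 libraries. None of 29 marrow stromal and niche genes was called (0 of 29), with sums of 946 to 6846 TPM in the SKO tumors and 3204 to 6886 TPM in control BM. In the adipocyte list, 3 of 11 fell. Cd36, a fatty acid transporter that macrophages also carry, had 0.0476, 0.0225 and 0.0890 TPM in the SKO tumors, against 131, 168 and 143 TPM in control BM (log2 difference -7.13, adjusted p = 0.000205). The lipases Pnpla2 and Lipe fell by 2.55 and 1.68 on the log2 scale.

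The tumor cultures differed among themselves in Hox genes, which record the position along the body and limb axes at which mesenchymal cells arose. Of 43 Hox and limb identity genes tested, 0 rose and 0 fell by limma. Of the 19 tested Hoxa and Hoxc genes, 19, 9 and 1 were at 1 TPM or more in SKO tumor 1, 2 and 3, against 11, 14 and 15 in control BM. Hoxc10 had 36.6, 12.3 and 0 TPM in the SKO tumors and 21.8, 22.9 and 26.3 TPM in control BM (log2 difference -1.63, adjusted p = 0.237, and 0.0184 without SKO tumor 1). The count was 12, 5 and 2 in the 3 libraries labelled DKO tumor, whereas it was 13 to 19 in SKO BMT and 17 to 19 in SKO yBM. The other clusters did not all follow this order, since 5, 0 and 0 of 8 tested Hoxb genes and 0, 0 and 2 of 2 tested Hoxd genes reached 1 TPM in SKO tumor 1, 2 and 3, against 0, 2 and 3 of the Hoxb and 0, 1 and 0 of the Hoxd genes in control BM. The Hoxa and Hoxc clusters were picked after their values were seen, and the bones from which the tumors were taken are not given per library in the labels.

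Matrix genes gave 2 of the larger single changes. Of 36 basement membrane and matricellular genes, 1 rose. Postn, periostin, a matrix protein of periosteum and of tumor stroma, had 1420, 1207 and 1490 TPM in the SKO tumors, against 444, 32.0 and 23.6 TPM in control BM (log2 difference 4.26, SE 1.21, adjusted p = 0.0268). The tumor libraries were close together, and control BM 1 was more than 10 times the other controls. The call was lost without control BM 2 (adjusted p = 0.123), control BM 3 (adjusted p = 0.127) or any of the SKO tumors (adjusted p = 0.0625, 0.0599 and 0.0517 without SKO tumor 1, 2 and 3). Of 30 collagens, 1 fell. This was Col14a1, a collagen of fibrils in soft connective tissue, with 0.0995, 0.0282 and 1.67 TPM in the SKO tumors, against 26.2, 16.5 and 21.8 TPM in control BM (log2 difference -3.94, adjusted p = 0.0137). It was lost without control BM 1 (adjusted p = 0.0518) or SKO tumor 2 (adjusted p = 0.0526). Of 24 matrix proteases and inhibitors 2 fell, close to the background of 9.57%. Serpine2, an inhibitor of thrombin and plasminogen activators, had 2.06, 2.12 and 6.60 TPM in the SKO tumors, against 49.5, 298 and 454 TPM in control BM (log2 difference -5.51, adjusted p = 0.00745), and Mmp8 was at 0 to 0.0117 TPM in the SKO tumors, against 1.08 to 3.28 TPM in control BM. Mmp8 passed the filter on low values only through the control BM libraries, so it could only have been called lower. Mylk, the kinase of smooth muscle myosin, and Nid2, a nidogen of basement membranes, did not pass, with log2 differences of -0.89 and -0.94 and adjusted p = 0.761 and 0.676.

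Secreted factors and their receptors moved in both directions. In the Wnt list, 1 of 28 rose and 1 fell. Sfrp2, a secreted frizzled-related protein, had 702, 269 and 734 TPM in the SKO tumors, against 4.00, 25.1 and 32.7 TPM in control BM (log2 difference 4.98, SE 1.21, adjusted p = 0.00994, and 0.0634 without control BM 1). The Sfrp2 call was also lost with the control BM libraries of set 1 and without both SKO tumor 2 and control BM 1. Its relative Sfrp4 fell (adjusted p = 0.0195) but not in 5 of the 6 fits that left out a library (adjusted p up to 0.068), passing only without SKO tumor 1. Among growth factors and receptor kinases, 2 of 32 rose and 6 fell, against the backgrounds of 2.01% and 9.57%. Ptn, pleiotrophin, a heparin-binding growth factor of bone and nerve, had 20.6, 49.6 and 774 TPM in the SKO tumors, against 2.77, 0.572 and 1.13 TPM in control BM (log2 difference 5.35, SE 1.18, adjusted p = 0.00454). All tumor libraries were above the controls, but SKO tumor 3 was more than 10 times the other tumors. Met, the receptor for hepatocyte growth factor, had 5.56, 2.24 and 9.18 TPM in the SKO tumors, against 0.308, 0.772 and 1.27 TPM in control BM (log2 difference 1.79, adjusted p = 0.0425), and was lost in 5 of the 6 fits that left out a library (adjusted p up to 0.143), all but that without SKO tumor 2.

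The growth factors that fell included some that macrophages make. Igf1, insulin-like growth factor 1, had 7.92, 11.5 and 18.4 TPM in the SKO tumors, against 380, 286 and 276 TPM in control BM (log2 difference -4.59, SE 0.98, adjusted p = 0.00358). Fgf2 had 0.725, 0.435 and 1.73 TPM in the SKO tumors, against 14.2, 12 and 17.5 TPM in control BM (log2 difference -3.03, adjusted p = 0.00532). The Fgf2 call was lost with the control BM libraries of set 1. Without both SKO tumor 2 and control BM 1, Igf1 and Fgf2 both lost their call. Mertk, a receptor by which phagocytes take up dying cells, had 0.133, 0.185 and 0.809 TPM in the SKO tumors, against 22.9, 18.8 and 24.2 TPM in control BM (adjusted p = 1.46e-06), and Pdgfb, Igf2 and Ret also fell. Igf2 and Ret lost their call in 4 and 3 of the 6 fits that left out a library (adjusted p up to 0.15 and 0.135). Of 30 genes of the TGF-beta, BMP and activin pathway, 0 rose and 3 fell, and the share that fell was close to the background of 9.57%. Tgfb1 had 25.3, 15.7 and 13.2 TPM in the SKO tumors, against 105, 143 and 135 TPM in control BM (log2 difference -2.80, adjusted p = 0.00498). Gdf6 fell by 1.45 and Inhbb fell by 2.35 on the log2 scale, Inhbb not without control BM 1 (adjusted p = 0.0673) or SKO tumor 2 (adjusted p = 0.0897).

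Inflammatory genes were lower in part. Of 22 chemokines and cytokines, 6 fell and 0 rose, against the backgrounds of 9.57% and 2.01%. Tnf, the macrophage cytokine, was listed at 0 in all SKO tumors, against 3.29, 15.0 and 18.8 TPM in control BM (adjusted p = 3.4e-06). Tnf passed the filter on low values only through the control BM libraries, so it could only have been called lower. Cxcl16 had 14.6, 5.91 and 6.13 TPM in the SKO tumors, against 115, 86.6 and 99.4 TPM in control BM (log2 difference -3.46, adjusted p = 0.000857). Cxcl14, a chemokine of epithelial and stromal cells, had 21.2, 1.77 and 0.754 TPM in the SKO tumors, against 384, 618 and 679 TPM in control BM (log2 difference -6.84, adjusted p = 0.00717). The Cxcl14 call was lost with the control BM libraries of set 1 (adjusted p = 0.0919) and without both SKO tumor 2 and control BM 1 (adjusted p = 0.0722). Saa3, Cxcl2 and Ccl9 were the other genes of this list that fell, Ccl9 not without control BM 2 (adjusted p = 0.0509), control BM 3 (adjusted p = 0.0547) or SKO tumor 3 (adjusted p = 0.0599). Of 34 interferon response genes, 0 rose and 0 fell by limma. Of 22 immediate early genes, 2 fell (Atf3 and Zfp36), close to the background of 9.57%. Each lost its call in 5 of the 6 fits that left out a library (adjusted p up to 0.106 and 0.153). In MHC class I presentation, 1 of 16 fell, which was H2-T23, the non-classical molecule Qa-1, with 5.81, 5.47 and 15.6 TPM in the SKO tumors, against 29.4, 50.9 and 62.0 TPM in control BM (log2 difference -2.36, adjusted p = 0.00577). The H2-T23 call was lost with the control BM libraries of set 1 and in a fit of the 2 groups alone.

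Metabolic lists showed few calls. In glycolysis, 3 of 23 fell and 0 rose, against the background of 9.57%. Gpi1, glucose-6-phosphate isomerase, had 134, 45.2 and 174 TPM in the SKO tumors, against 367, 415 and 350 TPM in control BM (log2 difference -1.87, adjusted p = 0.00219). Aldoc fell by 2.69 and Aldoa by 1.40 on the log2 scale, and Aldoa was lost without control BM 2 (adjusted p = 0.148), control BM 3 (adjusted p = 0.123) or SKO tumor 2 (adjusted p = 0.167). Aldoc and Aldoa were both lost with the control BM libraries of set 1. Psat1, an enzyme of serine synthesis, had 197, 71.0 and 101 TPM in the SKO tumors, against 17, 32.3 and 31.9 TPM in control BM (log2 difference 2.07, adjusted p = 0.00863), and was lost without control BM 1 (adjusted p = 0.0517) or SKO tumor 1 (adjusted p = 0.0501). Of 36 nuclear genes of oxidative phosphorylation, 1 rose (Ndufa4) and 1 fell (Uqcrc2), Ndufa4 not in 4 of the 6 fits that left out a library (adjusted p up to 0.196) and Uqcrc2 not without control BM 2 (adjusted p = 0.0587). In DNA repair, 1 of 41 rose and 1 fell. Mgmt, which removes alkyl groups from guanine, had 2.64, 1.95 and 1.71 TPM in the SKO tumors, against 6.54, 21.7 and 24.5 TPM in control BM (log2 difference -2.41, adjusted p = 0.000498). Tdg, a thymine DNA glycosylase, rose by a log2 difference of 1.50 (adjusted p = 0.0131, 0.0534 without control BM 2 and 0.066 without SKO tumor 1). None of 24 cholesterol synthesis, 15 Yap and Tead or 14 telomere maintenance genes was called.

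**Figure D5:**
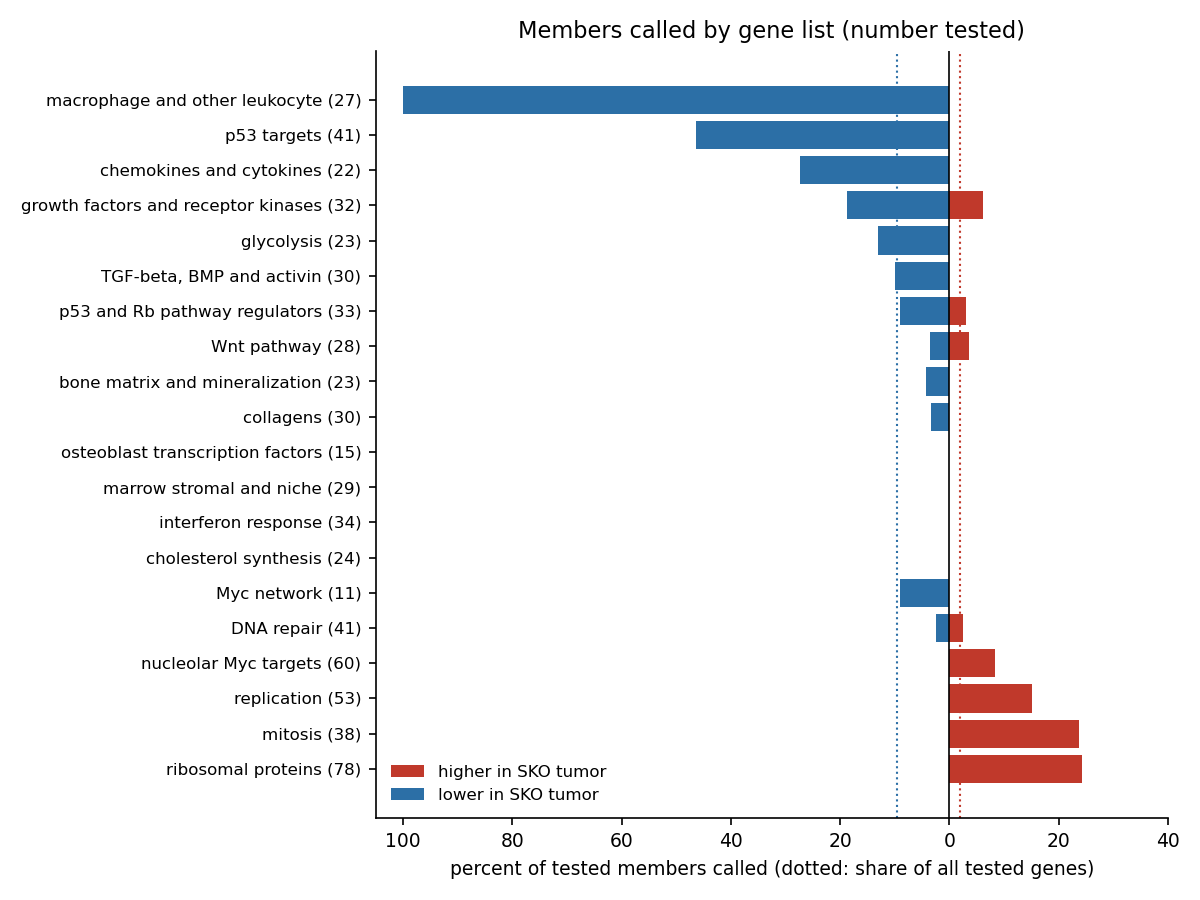
Share of the tested members of each gene list (percent, x axis) that was called higher or lower in SKO tumor than in control BM, with the number tested in parentheses and dotted lines at the shares of all tested genes, 2.01% and 9.57%. The macrophage and other leukocyte list has 27 of 27 members lower, the p53 targets 19 of 41 lower and the ribosomal proteins 19 of 78 higher.

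The 12 largest rises by the naming rule were Rpl34-ps1, a copy of Myl12b, Snora17, Ptn, Tma7-ps, Hmga1b, Sfrp2, Postn, Snora31, Mpc1-ps, Ctla2a and Rpl39l. Several are pseudogenes, near-identical copies or small nucleolar RNAs, whose reads a counting program can divide between copies, so they are uncertain. Rpl34-ps1 had 1100, 2188 and 2388 TPM in the SKO tumors and was listed at 0 in all control BM libraries of set 2, while the control BM libraries of set 1 had 429 to 647 TPM. The Myl12b copy (ENSMUSG00000117098) had 1518, 720 and 563 TPM in the SKO tumors, against 0, 0 and 0.708 TPM in control BM, and 110 to 644 TPM in control BM of set 1. The main Myl12b gene (ENSMUSG00000034868), a myosin light chain, had 82.0, 101 and 239 TPM in the SKO tumors and 211, 258 and 248 TPM in control BM (adjusted p = 0.198, and 0.0355 without SKO tumor 3). Against control BM of set 1, the differences for Hmga1b, Snora31 and Mpc1-ps turned negative, at -3.61, -1.17 and -0.04. Rpl34-ps1, the Myl12b copy, Snora17 and Rpl39l lost their call in that fit. Snora31, Mpc1-ps and Rpl39l lost their call in 4 of the 6 fits that left out a library (adjusted p up to 0.142, 0.148 and 0.11), and Tma7-ps without SKO tumor 2 (adjusted p = 0.0556).

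Ctla2a rose with little spread in either group. This gene, whose product resembles the propeptide of cysteine proteases, had 465, 426 and 310 TPM in the SKO tumors, against 38.9, 21.7 and 25.1 TPM in control BM (log2 difference 3.79, SE 0.46, adjusted p = 8.34e-06). It kept its call in every fit that left out a library and with the control BM libraries of set 1 (adjusted p = 0.00081), and had an adjusted p of 0.0574 with the leukocyte covariate. Levels were 229 to 312 TPM in SKO yBM, 73.7 to 246 TPM in DKO tumor and 42.8 to 62.2 TPM in SKO BMT libraries. Rgs4, a regulator of G protein signalling, had 90.0, 25.6 and 40.3 TPM in the SKO tumors, against 0.744, 6.21 and 6.41 TPM in control BM (log2 difference 3.36, adjusted p = 0.00494). The Rgs4 call was lost with the control BM libraries of set 1 and in a fit of the 2 groups alone. Gfra2, a receptor for neurturin, had 6.92, 5.93 and 16.6 TPM in the SKO tumors, against 0.494, 0.172 and 0.121 TPM in control BM (log2 difference 2.98, adjusted p = 0.00423). P3h2, a prolyl hydroxylase of collagens, had 12.2, 10.7 and 3.83 TPM in the SKO tumors, against 0.224, 0.277 and 0.394 TPM in control BM (log2 difference 2.81, adjusted p = 0.0133, and 0.0529 without SKO tumor 1). Also higher were H2-T10, an MHC class I-like gene outside the list above, by a log2 difference of 2.93 (adjusted p = 0.0402), Wincr1 by 2.85 (adjusted p = 0.0104), Cenpp, of the centromere, by 2.67 (adjusted p = 0.00103) and Plekhg4 by 2.64 (adjusted p = 0.0278). H2-T10 and Plekhg4 each lost their call in 5 of the 6 fits that left out a library (adjusted p up to 0.136 and 0.125), and Wincr1 and Cenpp in none. These 7 genes were reached only after pseudogenes, copies and small RNAs were set aside, a step taken after the values were seen.

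The SKO tumors were also set beside the other Trp53-deleted cultures. Across genes, Pearson correlations were 0.874 to 0.96 with SKO yBM, 0.839 to 0.94 with DKO tumor and 0.812 to 0.92 with SKO BMT libraries, against 0.724 to 0.825 with control BM. Against SKO BMT, 9 genes rose (0.0622%) and 3 fell (0.0207%) of 14458. Those that rose were AC154457.3, Amd2, BC023719, Ctla2a, Gm10260, Gm10263, Gm11361, the Myl12b copy and Rpl34-ps1, and those that fell were Gm12191, H2-T22 and Wnt7b. Named for their small number, they include clones, gene models and copies that are uncertain for the reason given above. Amd2, a copy of the gene for S-adenosylmethionine decarboxylase, had 12.8, 5.09 and 10.6 TPM in the SKO tumors, against 0 to 0.150 TPM in SKO BMT (log2 difference 3.19, adjusted p = 0.00178). Wnt7b, a Wnt ligand, had 0.0583, 0.170 and 0 TPM in the SKO tumors, against 1.22 to 2.40 TPM in SKO BMT (log2 difference -1.43, adjusted p = 0.00928), and was lost without SKO tumor 1 (adjusted p = 0.0624) or SKO tumor 3 (adjusted p = 0.0774). It was not tested when any of the SKO BMT libraries was left out, since it then missed the filter on low values. Rpl34-ps1 lost its call in all 6 fits that left out a library of these groups (adjusted p = 0.074 to 0.138), H2-T22 in 4 of them (adjusted p up to 0.0778), Ctla2a in 3 (adjusted p up to 0.0778) and the Myl12b copy without SKO BMT 2 (adjusted p = 0.0648). The number of genes called was 3 to 16 when 1 library was left out, 3 of them without SKO BMT 2. Without SKO BMT 2 and 3, the 2 libraries of very low Wwox, 4 genes were called, none of which was among the 12.

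Against SKO yBM, limma called 0 genes higher and 0 lower (0% each), and 958 genes had an unadjusted p under 0.05. The smallest adjusted p was 0.498. A fit of the 2 groups alone called 7, a fit without the filter on low values called 3, and the fits without SKO tumor 2 or SKO yBM 3 called 1 each. Against the libraries labelled DKO tumor, 0 genes were higher and 0 lower (0% each), with 1213 at an unadjusted p under 0.05 and a smallest adjusted p of 0.585. Leaving out a library gave 0 to 10 calls there, 10 of them without SKO tumor 3, 3 without SKO tumor 2, 2 without DKO tumor 1 and 1 without SKO tumor 1. Myc stood at -1.94 in SKO tumors against the libraries labelled DKO tumor (SE 0.62, adjusted p = 0.585), at 5.33 to 65.0 TPM in SKO tumors and 45.9 to 168 TPM in those libraries. As Wwox was not low in the libraries labelled DKO tumor, no direction in this comparison can be tied to loss of Wwox. A p above the threshold does not show that these groups were alike, and comparisons of SKO tumor with several groups share the same 3 tumor libraries.

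The genes that lie beside those described here were read in each tumor against the control mean. The 20 tested genes nearest to Myc on chromosome 15 had medians of 0.14, -0.85 and 0.17 on the log2 scale in SKO tumor 1, 2 and 3, while Myc itself stood at 1.87, -1.52 and 1.08. All genes had medians of 0.17, -0.81 and 0.13 in the same libraries, so the neighbours of Myc stood close to the average gene. Around Trp53 on chromosome 11 the medians were 0.18, -0.88 and 0.28, with Trp53 itself at -4.04, -5.00 and -4.26. Around Rb1 on chromosome 14 they were -0.32, -1.58 and -0.34, below those of all genes in each tumor, and Rb1 stood at -1.14, -2.43 and -1.45. Around Cdkn2a on chromosome 4, which encodes p16 and p19Arf, they were 0.59, -0.07 and 0.42, above those of all genes in each tumor. Copy number was not analysed here.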

How the data were processed

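Poly-A RNA was sequenced with the KAPA stranded kit on a NextSeq 500. The authors trimmed reads, quantified them with salmon and deposited 1 table of gene-level TPM for all 37 libraries, with their own tests run in DESeq2. Trim Galore 0.6.1, FastQC and the build mm39 are named in the submitters' processing notes; the methods give another Trim Galore version. Of 51123 gene IDs, 48246 received a gene symbol from reference tables of GRCm38.p6 and 2877 did not, so coordinates are given only for promoter windows of that assembly. All columns of the table were matched to a sample or group, the control BM columns of set 2 to their group only, and their numbers are those of the table. No 2 of the libraries used correlated above 0.969.

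TPM keeps no depth, so no counting error can be given, and where a few abundant RNAs dominate a library, all its other TPM values are pushed down. The 14458 genes that reached 1 TPM in 3 or more of the 21 libraries of set 2 entered 1 limma model (version 3.58.1, R 4.3.3) of all 7 groups, fitted to log2(TPM + 1) values with a prior that follows the mean level and no covariates. P-values were adjusted by Benjamini-Hochberg over these genes. A gene was called, and is said to have risen or fallen, where its adjusted p was below 0.05, whatever the size of its change. Tests are two-sided. The steps were tested on simulated data.

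The groups, gene lists and tests were chosen with earlier results of these data known. Genes named are Trp53, Wwox and genes the paper names for such comparisons, the 12 largest rises and falls and the 10 smallest p among called genes with no overlap between the libraries and a mean of 5 TPM or more in the higher group (without unnamed gene models and sex-linked genes), the 4 members of smallest p of each list, and called members of lists, of which 1 is not reported here. Exceptions are stated where they occur. Alternatives were other pseudocounts, filters, scalings, priors, samples and control libraries, a leukocyte covariate, the replicate number as a block, and leaving out each library.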

Additional observations from a re-analysis of the deposited data

How the results depend on the processing

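Of 136 named genes that were called, 83 kept call and direction in every fit that left out a library and 14 under every alternative. Both counts cover only the fits in which a gene was tested. Of the 18 alternatives, Cx3cr1, Fcrls, St8sia4, Gpr84, Rgs18 and Gpr65 were tested in 14. Csf3r, Rpl3-ps1 and Tnf were tested in 13, Mmp8, Gdf6 and Trp53cor1 in 12, and some others in 17. In the remaining fits these genes missed the filter on low values. The number of genes called in SKO tumor against control BM was 918 to 2104 when 1 library was left out, with 89 to 461 that rose and 779 to 1741 that fell. It was 182 with the leukocyte covariate (68 rose, 114 fell), 783 in a fit of the 2 groups alone (64 and 719), 2740 after quantile normalization (1256 rose) and 896 without SKO tumor 2 and control BM 1 together (135 and 761). Genes that rose numbered 756 after median-ratio scaling, 506 with the control BM libraries of set 1 and 580 with those of both sets together. Leaving out 1 library gave 3 to 16 calls against SKO BMT, 0 to 1 against SKO yBM and 0 to 10 against DKO tumor. Without the filter on low values 3 genes were called against SKO yBM and 2 against DKO tumor while a fit of the 2 groups alone called 7 against SKO yBM. Without the 2 SKO BMT libraries of low Wwox 4 genes were called. This last setting, the joint exclusion of SKO tumor 2 and control BM 1, and the pooling of both sets' controls were chosen after seeing the data. The cause of these shifts was not tested.

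The leukocyte covariate cannot be told apart from the control group. It is also the mean of a list that holds Lyz2, Tyrobp, Laptm5, C1qa, C1qb, C1qc, Ctss, Clec4d and Cd68. Its reversals, given first, therefore do not show the direction of any gene. Directions reversed with the leukocyte covariate for Wwox (-0.78), Mcm7 (-0.64), Mylk (5.23), Nid2 (3.31), Cdk4 (-0.29), Rb1 (0.08), Cdkn1a (0.58), Fam20c (0.20), Cd36 (2.20), Col14a1 (2.19), Lyz2 (6.33), Tyrobp (2.85), Apoe (2.52), Laptm5 (0.79), C1qa (0.95), C1qb (2.50), C1qc (1.34), Ctss (3.96), Clec4d (0.88), Cd68 (1.49), Atp6v0d2 (2.04), Zfp36 (0.79), Tgfb1 (0.83), Inhbb (0.64), Igf1 (0.78), Igf2 (1.25), Met (-1.22), Aldoc (0.18), Gfra2 (-0.57) and Wincr1 (-0.32). They reversed with the control BM libraries of set 1 for Hmga1b (-3.61), Snora31 (-1.17), Mpc1-ps (-0.04), Runx2 (-0.83), Sp7 (-0.32) and Col1a1 (-0.24), and with both sets of controls for Runx2 (-0.21). Leaving out 1 library in turn gave log2 differences of -0.22 (without SKO tumor 1) to 1.47 for Myc, -0.13 (without SKO tumor 1) to 1.10 for Rrp9, -0.49 (without SKO tumor 1) to 1.22 for Rcc1, -2.23 to 0.02 (without SKO tumor 3) for Mylk, -0.39 (without SKO tumor 1; -0.33 without control BM 1) to 1.76 for Sp7 and -0.01 (without SKO tumor 3) to 1.66 for Col1a1. Without SKO tumor 2 and control BM 1 together Sp7 was at -0.64.

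No paired analysis was possible for SKO tumor against control BM because the control BM columns of set 2 carry no number that ties them to a labelled sample. For the other comparisons a fit with the replicate number as a block called 11 genes against SKO BMT, 0 against SKO yBM and 0 against DKO tumor. Ctla2a (adjusted p = 0.0594, limma) and Rpl34-ps1 (adjusted p = 0.0644) were lost against SKO BMT. Libraries with the same number did not deviate together (r across genes -0.20 to 0.18), and no source used here pairs the libraries of set 2 by number. Whether cultures of the same number share a mouse was not tested. With 3 libraries a group and unknown depth, small differences could not be detected. That limit was set by the spread between libraries pooled over all 7 groups, not by that of the tumors alone.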

Other observations

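Several copies and pseudogenes were high in the SKO tumors and near 0 in whole groups of set 2. They were picked after their values were seen, and reads from near-identical copies may be split between them. Rpl34-ps1 had 1100 to 2388 TPM in the SKO tumors, 866 to 2251 TPM in SKO yBM and 976 to 2816 TPM in the libraries labelled DKO tumor, and was listed at 0 in all SKO BMT, DKO BMT and set 2 control BM libraries, while control BM of set 1 had 429 to 647 TPM. The Myl12b copy (ENSMUSG00000117098) had 563 to 1518 TPM in the SKO tumors, against 0 to 1.38 TPM in SKO BMT, 0.632 to 4.07 TPM in DKO BMT and 0 to 0.708 TPM in control BM of set 2, while control BM of set 1 had 110 to 644 TPM. Hmga1b had 3.59 to 173 TPM in the SKO tumors and 96.7 to 208 TPM in those labelled DKO tumor, against 0 to 0.179 TPM in SKO BMT and 0 to 0.0516 TPM in control BM of set 2, while control BM of set 1 had 200 to 772 TPM. Amd2 followed another order, with 5.09 to 12.8 TPM in the SKO tumors, 0 to 0.150 TPM in SKO BMT, 0 to 0.340 TPM in DKO BMT, 0.088 to 0.220 TPM in DKO yBM and 2.35 to 8.89 TPM in control BM of set 2.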
